A study of Mus musculus with 19 samples.

Results

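Oxidative phosphorylation passes electrons from NADH and succinate to oxygen and makes ATP from the proton gradient this builds. Complex I takes electrons from NADH, complex II from succinate, complex III passes them to cytochrome c, complex IV hands them to oxygen and complex V is the ATP synthase. Complexes I, III, IV and V are each built from subunits encoded in the nucleus and a few encoded in the mitochondrial DNA, whereas complex II and cytochrome c are wholly nuclear. Activated macrophages and related myeloid cells are known to shift between glycolysis and mitochondrial respiration, and mature neutrophils are known to rely mostly on glycolysis.

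The genes described here are those named for subunits of these 5 complexes and for cytochrome c, in bulk RNA-seq of sorted bone marrow cells. They were taken by symbol: names beginning with Nduf, 1 of the letters a, b, c, s or v and then a digit, Sdha to Sdhd, Uqcr, Cox4 to Cox8, Atp5, Cyc1 and Cycs, and the mt-Nd, mt-Co, mt-Atp and mt-Cytb genes, without names that end in -ps and a number. Of 106 such symbols in the table of 50854 genes, 94 averaged 1 read or more across the 19 libraries and are the members. They divide into 83 nuclear members (37 of complex I, 3 of complex II, 8 of complex III, 16 of complex IV with Ndufa4 among them, 18 of complex V and Cycs) and 11 of the mitochondrial genome (5 of complex I, 1 of complex III, 3 of complex IV and 2 of complex V). Of the nuclear members, 77 are annotated as protein coding, 5 as processed pseudogenes (Ndufa11b, Ndufb4c, Ndufs6b, Cox6c2 and Atp5l2-ps) and 1, Ndufb1-ps, as a long noncoding RNA of a bidirectional promoter.

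All libraries came from female REP mice of 8 to 12 weeks, a line in which fluorescent proteins report the expression of chemokine receptors, with Clover standing for CCR1 and mRuby2 for CCR2. Monocytes were sorted by the 2 reporters, so the reporters and not the receptors themselves define the groups. The surface gate of this sort and the sort of the cells labelled CCR1 are not given in the sources used here. For other monocyte sorts of the study the gate was CD11b+, high in Ly6C, Ly6G- and SiglecF-. From resting mice there are 4 libraries of CCR2+ve monocytes and 4 of CCR1/2+ve monocytes, which carry both reporters. From inflamed mice, given IL-3, IL-6, GM-CSF and IFN-α by osmotic pump for 7 days, there are 4 libraries of CCR2+ve cells, 3 of CCR1/2+ve cells (replicates 2, 3 and 4) and 4 of cells labelled CCR1. A resting CCR1 group is not among the samples used here. Whether replicates came from separate animals is not stated in the sources used here, so p-values measure the spread between these samples. Nor is it stated whether resting and inflamed libraries were prepared together, so treatment and preparation cannot be told apart.

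Between 22268658 and 30502009 reads fell on genes per library (median 23706580, n = 19). The CCR2+ve and CCR1/2+ve libraries, resting or inflamed, carried the markers of monocytes, with a summed level of 10 monocyte markers between 31109 and 57874 CPM (reads of a gene scaled to the effective size of each library). The 4 libraries labelled inflamed CCR1 went against their label of monocytes: the same 10 markers summed to 7824 to 12470 CPM, and 9 neutrophil markers summed to 103150 to 151199 CPM, against 1195 to 1517 CPM in inflamed CCR2+ve cells. In them Ccr2 stood at 5.82 ± 2.56 CPM (SD, n = 4) and the neutrophil granule gene Ngp at 86027 CPM on average, and Ly6g, a neutrophil surface marker, at 14.4 CPM. These 4 libraries are therefore called the inflamed CCR1 libraries and not monocytes, and are compared apart from the others.

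Of the 12 symbols without enough reads, 8 had 0 reads in every library: Ndufs4, Ndufs6, Sdha, Uqcrb, Cox7c, the pseudogene Atp5c1-ps, and Cox7b2 and Cox8c on chromosomes 5 and 12. All but Cox7b2 and Cox8c lie on chromosome 13, between positions 66900617 and 114388258 of GRCm38. In that stretch 48 of 262 protein-coding genes (18.3%) reached a mean of 1 read, against 236 of 410 (57.6%) on the same chromosome before position 55000000 and 60.5% of all other protein-coding genes of the table. The zeros on chromosome 13 are thus shared with many neighbours and are not described as levels in the cells. The row of Ndufs6b, a processed pseudogene, held 2197 reads on average, and 25.4% of its 50-base stretches occur in the transcript of Ndufs6. The other symbols below the filter, mt-Nd3, mt-Nd4l, Ndufa4l2 and Cox8b, had reads in some libraries.

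The mitochondrial members differ widely in how many reads they hold. Reads that align to more than 1 place were discarded by the authors, and the share of 50-base stretches of the gene that also occur in other annotated genes was 100% for mt-Co2, 99.9% for mt-Co3, 99.5% for mt-Atp6, 62.2% for mt-Nd4, 51.1% for mt-Co1, 8.19% for mt-Nd2, 7.61% for mt-Nd5 and 0% for mt-Nd1, mt-Nd6, mt-Cytb and mt-Atp8. Mean reads were 10.4 for mt-Co2, 13.4 for mt-Co3, 16 for mt-Atp6 and 2.21 for mt-Atp8, and 1560.2 to 45255 for the other 7, which carry the results below. Among the mitochondrial members mt-Atp8, 204 bases long and with no stretch shared with another annotated gene, held the fewest reads. Copies outside annotated genes were not searched. Below the filter mt-Nd3, with 98.0% shared, averaged 0.158 reads and mt-Nd4l, with 98.8%, averaged 0.421. The part of shared sequence or of length in these numbers was not tested. Levels of different mitochondrial members are not compared with each other.

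Promoters of the nuclear members, taken as 250 bases before to 50 after the start of the gene in RefSeq (GRCm38.p6), were matched for 63 of the 77 protein-coding nuclear members. Letters of motifs known from respiratory genes were searched on both strands, and because the NRF1 letters and their reverse complement share bases, both can lie in 1 run. GCATGCGC (NRF1) was found in 11 of 63 (17.5%), against 2.71% of all 32851 promoters and 5.23% of those of 10024 tested genes. CCGGAAG (ETS factors, among them GABP) was found in 23.8% of members, 8.86% of all promoters and 17.9% of those of tested genes, AAGATGGC (YY1) in 11.1%, 2.75% and 4.66%, TCAAGGTCA (estrogen-related receptors) in 3.17%, 0.423% and 0.239%, and CCAAT in 44.4%, 37.4% and 39.1%. These are matches of letters and were not tested for binding. Shown are the promoters of 4 members whose transcripts behaved differently below: Cycs on the minus strand at chr6:50566520-50566819, Cox6a1 on the minus strand at chr5:115348909-115349208, Atp5l on the minus strand at chr9:44920693-44920992 and Cox5a on the plus strand at chr9:57520982-57521281. Capitals mark the letters of NRF1, ETS, YY1 or estrogen-related receptor motifs, in either direction.
Cycs: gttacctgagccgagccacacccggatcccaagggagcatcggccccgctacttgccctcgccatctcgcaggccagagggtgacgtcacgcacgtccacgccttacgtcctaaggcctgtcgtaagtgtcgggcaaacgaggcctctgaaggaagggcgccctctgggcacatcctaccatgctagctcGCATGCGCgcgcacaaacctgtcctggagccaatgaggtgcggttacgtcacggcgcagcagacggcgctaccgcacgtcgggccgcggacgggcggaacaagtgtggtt
Cox6a1: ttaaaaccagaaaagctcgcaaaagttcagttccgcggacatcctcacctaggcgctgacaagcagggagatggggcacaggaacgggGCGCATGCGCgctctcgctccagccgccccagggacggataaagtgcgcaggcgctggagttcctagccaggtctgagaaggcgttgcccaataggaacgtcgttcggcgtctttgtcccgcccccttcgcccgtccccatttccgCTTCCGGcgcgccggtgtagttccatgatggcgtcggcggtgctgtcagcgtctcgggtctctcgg
Atp5l: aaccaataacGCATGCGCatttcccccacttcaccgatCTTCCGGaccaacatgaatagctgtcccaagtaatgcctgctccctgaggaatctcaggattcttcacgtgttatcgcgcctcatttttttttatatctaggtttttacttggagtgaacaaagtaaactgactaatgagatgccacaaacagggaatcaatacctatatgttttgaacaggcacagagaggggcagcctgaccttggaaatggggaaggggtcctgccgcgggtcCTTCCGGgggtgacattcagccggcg
Cox5a: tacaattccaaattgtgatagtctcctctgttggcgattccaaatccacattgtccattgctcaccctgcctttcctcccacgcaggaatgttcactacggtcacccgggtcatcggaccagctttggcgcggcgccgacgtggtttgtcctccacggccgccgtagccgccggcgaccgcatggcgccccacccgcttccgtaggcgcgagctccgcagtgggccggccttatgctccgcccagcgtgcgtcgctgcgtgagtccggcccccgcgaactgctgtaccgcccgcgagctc
Cycs holds the NRF1 letters, Cox6a1 and Atp5l hold both NRF1 and ETS letters, and Cox5a holds none of the 4 kinds in this window. Cox6a1 and Cox5a were lower and Atp5l was higher in inflamed than in resting cells, as given below.

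The whole group took a small and variable share of the reads. Mitochondrial protein-coding genes held 0.648 ± 0.164% of reads on genes in resting CCR1/2+ve monocytes (SD, n = 4) and 0.372 ± 0.102% in resting CCR2+ve monocytes (n = 4). In inflamed cells they held 0.264 ± 0.083% in CCR1/2+ve monocytes (n = 3), 0.265 ± 0.072% in CCR2+ve monocytes (n = 4) and 0.399 ± 0.022% in the inflamed CCR1 libraries (n = 4). The 83 nuclear members together held 1.59 ± 0.013% and 1.37 ± 0.068% in resting CCR1/2+ve and CCR2+ve monocytes, 1.23 ± 0.10% and 1.25 ± 0.16% in their inflamed counterparts, and 1.03 ± 0.11% in the inflamed CCR1 libraries. The ratio of mitochondrial to nuclear reads of the group was 0.407 in resting CCR1/2+ve, 0.270 in resting CCR2+ve, 0.216 in inflamed CCR1/2+ve and 0.213 in inflamed CCR2+ve monocytes, and 0.388 in the inflamed CCR1 libraries. Ranges of the 2 resting groups met for mitochondrial genes (0.478 to 0.849% against 0.281 to 0.491%) and did not overlap for nuclear members (1.58 to 1.61% against 1.31 to 1.46%). In these bulk samples a lower level of a transcript in some cells and fewer cells that carry it cannot be told apart.

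**Figure D1:**
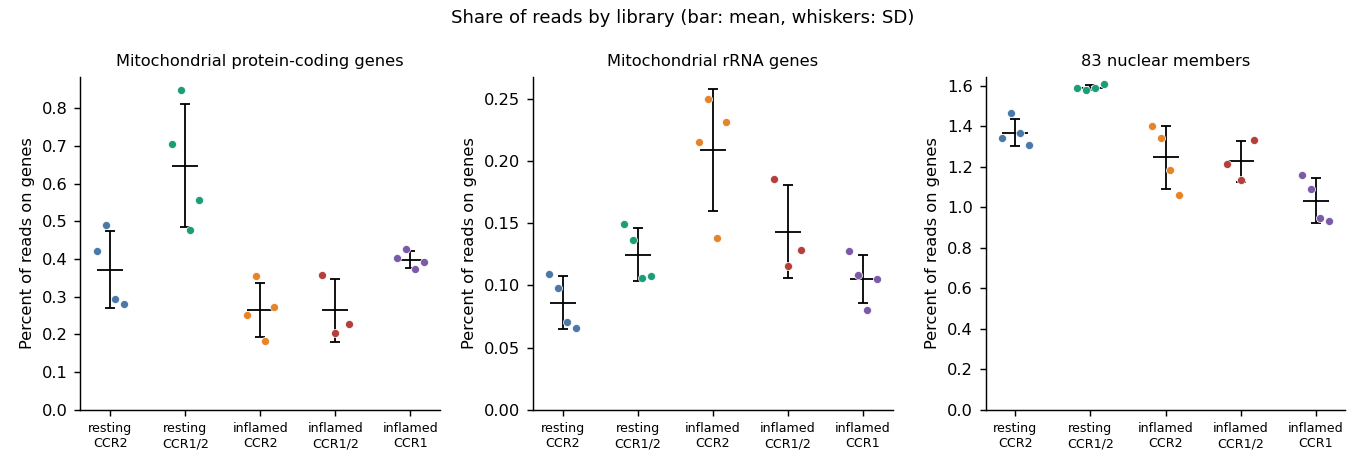
Share of reads on genes held by mitochondrial protein-coding genes, mitochondrial rRNA genes and the 83 nuclear members, 1 point a library in percent, with the mean and SD of each of the 5 groups. Resting CCR1/2+ve libraries have the highest mitochondrial protein-coding share (mean 0.648%) and the tightest nuclear share (1.58 to 1.61%), and the rRNA share is highest in inflamed CCR2+ve cells (mean 0.209%).

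Resting CCR1/2+ve monocytes carried more transcript of many members than resting CCR2+ve monocytes, from both genomes, and no member was called lower. At an adjusted p below 0.05 (edgeR quasi-likelihood test, Benjamini-Hochberg over 18652 genes), 30 of 83 nuclear members and 7 of 11 mitochondrial members were higher, where 8.44% of all genes tested were higher and 8.44% lower. The changes were small: none reached an absolute log2 fold change of 1, which 2.34% of all genes did upward and 1.9% downward. The median log2 fold change was 0.20 over nuclear members and 0.67 over the 7 well-read mitochondrial members, against 0.03 over all genes. Since most members are well read, the nuclear members at a mean of at least 20 CPM are set beside all genes at that level: 41.1% of 73 were higher and 0% lower, against 16.5% and 16.2% of 6202.

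All 7 well-read mitochondrial members were higher in each of the 4 pairs of resting libraries that share a number. mt-Cytb, the single mitochondrial subunit of complex III (chrM:14145-15288), stood at 1552, 1804, 1184 and 1139 CPM in resting CCR2+ve replicates 1 to 4 and at 2472, 3014, 1830.4 and 2199 CPM in CCR1/2+ve replicates 1 to 4. Every CCR1/2+ve library lay above every CCR2+ve one, replicate 3 of the former by little over replicate 2 of the latter, and the log2 fold change was 0.82 ± 0.18 (SE, edgeR adjusted p = 0.00912). For mt-Nd1, a core subunit of complex I (chrM:2751-3707), the CCR2+ve libraries held 491, 563, 402 and 376 CPM and the CCR1/2+ve libraries 715, 836, 631 and 706 CPM, without overlap. The log2 fold change of mt-Nd1 was 0.73 ± 0.14 (edgeR adjusted p = 0.00336). mt-Co1, the catalytic subunit of complex IV (chrM:5328-6872), rose by 0.68 ± 0.16 (edgeR adjusted p = 0.0114), from 1153, 1226, 808 and 833 CPM to 1630.0, 1754, 1236 and 1498 CPM. In both groups replicates 1 and 2 lay above replicates 3 and 4 for mt-Cytb.

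The other 4 mitochondrial members rose by 0.53 to 0.67: mt-Nd5 by 0.67 ± 0.18 (edgeR adjusted p = 0.0237), mt-Nd6, the one gene of the group on the opposite strand, by 0.64 ± 0.18 (0.0266), mt-Nd4 by 0.63 ± 0.18 (0.0332) and mt-Nd2 by 0.53 ± 0.15 (0.0268). These calls were less firm. The number of mitochondrial members called was 3 without resting CCR1/2+ve replicate 1, CCR1/2+ve replicate 2, CCR2+ve replicate 3 or CCR2+ve replicate 4, and also 3 with no filter on low counts, where mt-Cytb too was not called (edgeR adjusted p = 0.0527). With offsets for GC content and length mt-Nd2, mt-Nd4 and mt-Nd6 were not called, at 0.29, 0.41 and 0.32 (edgeR adjusted p = 0.101, 0.0712 and 0.12). The 2 mitochondrial ribosomal RNAs, which are no members, rose as well, mt-Rnr1 by 0.62 ± 0.15 (edgeR adjusted p = 0.0128) and mt-Rnr2 by 0.46 ± 0.14 (0.0403).

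**Figure D2:**
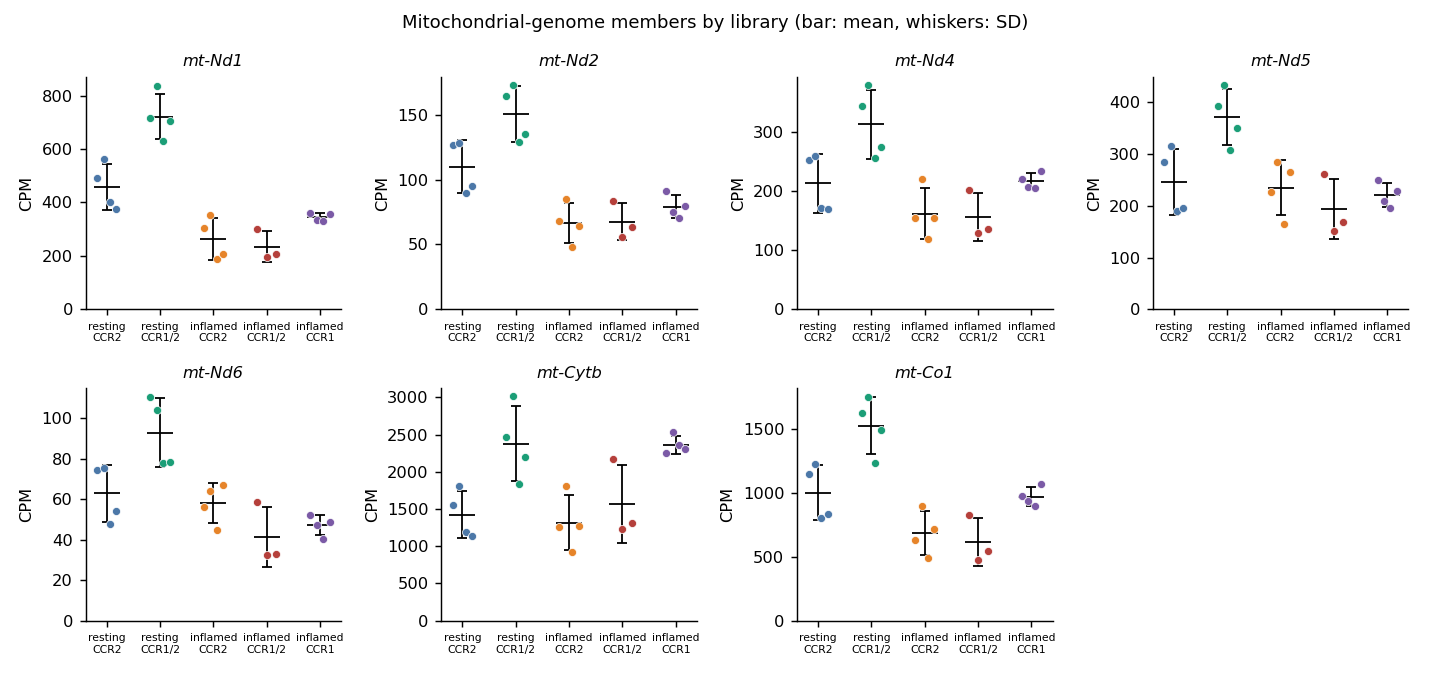
Level in CPM of the 7 well-read mitochondrial members, 1 point a library, with the mean and SD of each group. For mt-Nd1 the 4 resting CCR1/2+ve libraries (631 to 836 CPM) lie above every other library, and inflamed libraries of both monocyte populations lie below every resting one.

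Nuclear members that rose in resting CCR1/2+ve monocytes were spread over complexes I (11 of 37), III (3 of 8), IV (6 of 16) and V (9 of 18) and included Cycs, while 0 of 3 complex II members were called. Over all genes tested 8.44% were higher and 8.44% lower, and over genes at a mean of at least 20 CPM 16.5% and 16.2%. Ndufb6, an accessory subunit of complex I (chr4:40270591-40279421), stood at 42.8, 52.9, 48.8 and 46.3 CPM in CCR2+ve and 67.7, 61.6, 76.4 and 77.8 CPM in CCR1/2+ve libraries. The 2 sets did not overlap and the log2 fold change was 0.64 ± 0.09 (edgeR adjusted p = 0.000462). Uqcr10, a small subunit of complex III, went from 118, 142, 116 and 116 CPM to 172, 164, 169 and 179 CPM, a rise of 0.55 ± 0.09 (edgeR adjusted p = 0.00089). Ndufa4, a subunit of complex IV despite its name, rose by 0.48 ± 0.08 (edgeR adjusted p = 0.00129), from 166, 188, 169 and 162 CPM to 228, 202, 244 and 236 CPM. Atp5e, the epsilon subunit of the ATP synthase, rose by 0.57 ± 0.11 (edgeR adjusted p = 0.00269), from 112, 148, 115 and 106 CPM to 173, 154, 179 and 171 CPM. Atp5b, the catalytic beta subunit of the ATP synthase (0.10 ± 0.09, edgeR adjusted p = 0.482), and Uqcrc1, a core protein of complex III (-0.01 ± 0.07, 0.96), were not called.

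Cytochrome c, the mobile carrier between complexes III and IV, is encoded by Cycs (chr6:50562563-50566538), whose promoter is printed above. It held 123, 128, 124 and 134 CPM in resting CCR2+ve and 142, 147, 154 and 158 CPM in resting CCR1/2+ve monocytes, without overlap, a log2 fold change of 0.32 ± 0.06 (edgeR adjusted p = 0.00501). Over the 77 nuclear members at a mean of 1 CPM or more, 28 were higher in all 4 same-numbered pairs and 12 in 0, where 19.9% and 36.3% of all genes at that level were. These counts rest on CPM scaled over all 19 libraries. The edgeR test was scaled on the resting libraries alone, and there 8.44% of all genes were higher and 8.44% lower. The pair shares are thus not read as a direction of all genes. With replicate number as a block, 40 nuclear members were higher, the 30 among them, and 1 was lower, where 12.4% of all genes were higher and 13.2% lower. That member was Cox7a2l (chr17:83501918-83517330), which is known for joining complexes III and IV: its levels were 215, 188, 219.5 and 234 CPM in CCR2+ve and 153, 144, 190.3 and 191 CPM in CCR1/2+ve monocytes, a log2 fold change of -0.26 ± 0.09 (edgeR adjusted p = 0.0778, and 0.00229 with the block). Its relative Cox7a2 rose by 0.47 ± 0.09 (edgeR adjusted p = 0.00264), and per kilobase of exon Cox7a2 made up 59.4 ± 1.8% of the Cox7a family in CCR1/2+ve and 46.7 ± 4.6% in CCR2+ve monocytes (SD, n = 4). Without resting CCR2+ve replicate 4 the count of higher nuclear members was 18.

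Other gene groups were counted in this comparison, where 8.44% of all genes were higher and 8.44% lower. Among genes at a mean of at least 20 CPM these shares were 16.5% and 16.2%. Of 6 proliferation markers tested 6 were higher (median log2 fold change 0.92), with a summed level of 1858 to 2308 CPM against 980.3 to 1275 CPM, and of 9 neutrophil markers 4 were higher and 0 lower, with summed levels of 2384 to 2990 against 586 to 881 CPM. Of 10 monocyte markers 0 were higher and 6 lower (median -0.57), and erythroid markers summed to 52.7 to 162 against 84.7 to 269 CPM, with 0 of 6 called. Dendritic cell markers summed to 38.6 to 137 against 239 to 712 CPM, with 0 of 7 higher and 4 lower, and macrophage markers to 88.7 to 152 against 81.8 to 108 CPM, with 4 of 6 higher and 1 lower. B cell markers had 1 of 5 higher and 1 lower, and T and NK cell markers 1 of 4 and 1. Of the genes of cytosolic ribosomes 32 of 83 were higher and 0 lower (median 0.18), and of those of mitochondrial ribosomes 25 of 71 were higher and 1 lower (median 0.21). Complex assembly factors had 5 of 45 higher and 0 lower, mitochondrial transcription and replication 2 of 11 and 0, the citrate cycle 2 of 12 and 0, glycolysis 3 of 17 and 0, regulators of mitochondrial genes 1 of 11 higher and 1 lower, and the carriers 0 of 6 in either direction. The part of proliferation or of neutrophil transcripts in the levels of the members was not tested.

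In inflamed against resting cells the members did not move as 1 group: within the same complex some subunits fell more than 10-fold while partners were not called or rose. In CCR2+ve cells 31 of 83 nuclear members were higher and 23 lower, where 21.9% of all genes were higher and 25.9% lower, and 4 of 11 mitochondrial members were lower and 0 higher. With a log2 fold change of 1 or more in size required as well, 4 nuclear members were higher and 16 lower, against 9.37% and 19.2% of all genes. In CCR1/2+ve cells 27 were higher and 34 lower against 20.6% and 25.4% of all genes, 7 of 11 mitochondrial members were lower and 0 higher, and at both cutoffs 3 nuclear members were higher and 17 lower against 9.16% and 19.4%. At a mean of at least 20 CPM, 38.4% and 26.0% of 73 nuclear members were higher and lower in CCR2+ve cells, against 42.2% and 30.7% of all genes at that level, and 35.6% and 41.1% against 43.9% and 29.6% in CCR1/2+ve cells.

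Among nuclear members at 20 CPM or more in resting CCR2+ve cells, the 3 deepest falls were those of Uqcrfs1, Cyc1 and Cox5a. Uqcrfs1, the Rieske iron-sulfur protein of complex III (chr13:30540308-30545362, before the stretch of chromosome 13 with few reads), held 254, 275, 281 and 294 CPM in resting CCR2+ve and 15.5, 12.6, 15.1 and 15.1 CPM in inflamed CCR2+ve cells, and 242, 237, 293 and 318 CPM in resting and 10.3, 12.6 and 12.6 CPM in inflamed CCR1/2+ve cells. No library of either inflamed group came near a resting one, with log2 fold changes of -4.31 ± 0.12 (edgeR adjusted p = 4.9e-12) and -4.64 ± 0.14 (1.29e-09). Cyc1, cytochrome c1 of complex III (chr15:76343523-76346260), was chosen after its values were seen, as were the other members outside the naming rule (Cox5b and Atp5l). It fell from 157, 158, 169 and 170.1 CPM to 14.3, 14.3, 12.8 and 15.9 CPM in CCR2+ve cells and from 167, 162, 188 and 185 CPM to 12.4, 11.3 and 15.02 CPM in CCR1/2+ve cells, with log2 fold changes of -3.58 ± 0.11 (edgeR adjusted p = 1.18e-11) and -3.89 ± 0.13 (1.8e-09, and -3.05 with offsets for GC content and length). Cox5a, a nuclear subunit of complex IV (chr9:57521274-57532426), fell from 115, 113, 127 and 115 CPM to 6.82, 5.16, 4.65 and 5.72 CPM in CCR2+ve cells and from 113, 109, 129.6 and 134 CPM to 2.96, 2.40 and 4.08 CPM in CCR1/2+ve cells. Its log2 fold changes were -4.46 ± 0.14 (edgeR adjusted p = 1.18e-11) and -5.39 ± 0.18 (2.13e-09).

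Falls of this depth were as common outside the group. Among genes at 20 CPM or more in resting CCR2+ve cells, 3 of 71 nuclear members (4.23%) and 260 of 6129 genes (4.24%) were called with a log2 fold change of -3 or below in CCR2+ve cells, and 3 of 71 and 268 of 6129 (4.37%) in CCR1/2+ve cells. The GC content of the 3 genes is 48.6%, 61.4% and 41.6% and their exonic length is 1363, 2154 and 2101 bases for Uqcrfs1, Cyc1 and Cox5a, where nuclear members have medians of 51.0% and 1550 bases. Of their 50-base stretches 0%, 0% and 9.11% occur in other annotated genes.

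Among the partners of these subunits some rose, some fell less and some were not called. Uqcrc2, a core protein of complex III, rose from 133, 115, 136 and 126 CPM to 193, 201, 173 and 158 CPM in CCR2+ve cells (0.43 ± 0.10, edgeR adjusted p = 0.00214) and to 243, 183 and 178 CPM from 124, 116, 153 and 135 CPM in CCR1/2+ve cells (0.48 ± 0.11, 0.00481). The other core protein, Uqcrc1, was not called in either (-0.28 ± 0.15, edgeR adjusted p = 0.148, and -0.54 ± 0.43, 0.345), and in inflamed CCR1/2+ve cells its level differed widely between replicates 2, 3 and 4, at 161, 437 and 820.2 CPM. Uqcrh, the hinge protein of complex III, fell by 0.52 ± 0.17 (edgeR adjusted p = 0.0183) and 0.71 ± 0.10 (0.000105). In CCR2+ve cells that call was lost with offsets for GC content and length (edgeR adjusted p = 0.132) and without any 1 resting replicate (0.0665 to 0.11). Ndufb7, an accessory subunit of complex I, rose by 0.65 ± 0.10 (edgeR adjusted p = 6.34e-05) and 0.46 ± 0.08 (0.000548, and 0.0604 with the offsets).

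Subunit c of ATP synthase, the ring in the membrane, is encoded by 3 genes. Atp5g1 rose by 0.42 ± 0.13 in CCR2+ve cells (edgeR adjusted p = 0.0161, not called without inflamed replicate 1 or 2) and by 0.45 ± 0.10 in CCR1/2+ve cells (0.00385). Atp5g3 fell by 0.35 ± 0.09 in CCR1/2+ve cells (edgeR adjusted p = 0.00778), a call lost with DESeq2 (adjusted p = 0.0705), RLE factors (edgeR, 0.0741) and the offsets (edgeR, 0.058). Between resting groups Atp5g3 was higher in CCR1/2+ve cells by 0.28 ± 0.08 (edgeR adjusted p = 0.0246), not called without replicate 3 or 4 of either group. Atp5g2 was not called in any comparison. Per kilobase Atp5g3 was the main form, at 64.7 ± 1.0% of the 3 genes in resting and 60.6 ± 1.9% in inflamed CCR2+ve cells (SD, n = 4).

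In complex IV, Cox4i1, an early-assembling subunit, rose in CCR2+ve cells from 479.6, 477, 487 and 476 CPM to 728, 713, 681 and 583 CPM (0.42 ± 0.09, edgeR adjusted p = 0.00148) and was not called in CCR1/2+ve cells (0.16 ± 0.08, 0.145). Against it, Cox8a fell from 229, 236, 278 and 274 CPM to 111, 71.9, 107 and 35.2 CPM in CCR2+ve cells (-1.72 ± 0.29, edgeR adjusted p = 0.000448) and to 16.4, 42.2 and 97.6 CPM in CCR1/2+ve cells (-2.29 ± 0.50, 0.00481, 0.081 with the replicate block, and -3.15 without inflamed CCR1/2+ve replicate 4). Cox6a1 fell by 1.33 ± 0.33 (edgeR adjusted p = 0.00785) and 1.89 ± 0.49 (0.0112), the latter not called without resting CCR1/2+ve replicate 1 or 2, with no filter on low counts (edgeR adjusted p = 0.075) or with the replicate block (0.103). With offsets for GC content and length neither fall of Cox6a1 was called, at -0.57 (edgeR adjusted p = 0.0599) and -0.86 (0.0789). Without inflamed CCR1/2+ve replicate 4 the latter was -2.65. Cox5b fell by 1.56 ± 0.23 (edgeR adjusted p = 9.38e-05) and 2.21 ± 0.43 (0.00233). In CCR1/2+ve cells Cox5b was not called with the replicate block (edgeR adjusted p = 0.0702), and was -2.92 without inflamed CCR1/2+ve replicate 4.

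**Figure D3:**
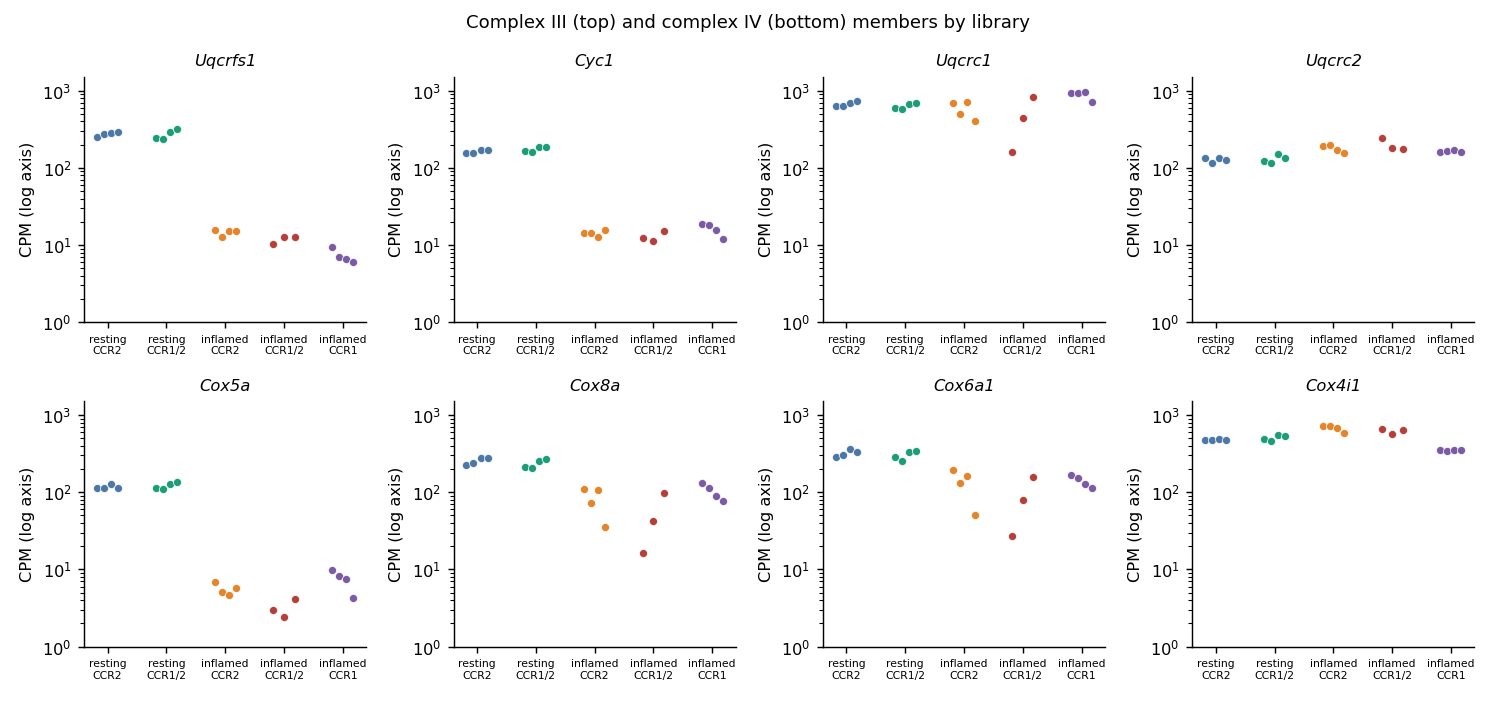
Level in CPM on a log axis of 4 complex III members (Uqcrfs1, Cyc1, Uqcrc1, Uqcrc2) and 4 complex IV members (Cox5a, Cox8a, Cox6a1, Cox4i1), 1 point a library in the 5 groups. Uqcrfs1, Cyc1 and Cox5a lie at 109 to 318 CPM in all resting and 2.40 to 18.9 CPM in all inflamed libraries, while Uqcrc2 and Cox4i1 stay within 115 to 728 CPM.

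Complex V was split in the same way. Atp5b, the catalytic beta subunit, fell from 643, 661, 735 and 698 CPM to 304, 224, 278 and 187 CPM in CCR2+ve cells (-1.53 ± 0.13, edgeR adjusted p = 1.81e-07) and from 601, 635, 778 and 780.0 CPM to 168, 172 and 246 CPM in CCR1/2+ve cells (-1.96 ± 0.15, 9.55e-07). Its partner in the catalytic ring, the alpha subunit Atp5a1, rose from 637, 624, 717 and 724 CPM to 1177, 1122, 1040.1 and 939 CPM in CCR2+ve cells (0.59 ± 0.10, edgeR adjusted p = 0.000102) and to 823, 936 and 952 CPM from 562, 546, 695 and 701 CPM in CCR1/2+ve cells (0.41 ± 0.10, 0.00477, and 0.0501 with the offsets). Thus alpha and beta, which are built into the enzyme in equal number, moved in opposite directions in transcript, with no overlap between the resting and inflamed monocyte libraries for either. Atp5d, the delta subunit of the central stalk, fell by 2.11 ± 0.14 (edgeR adjusted p = 1.29e-08) and 2.55 ± 0.30 (0.000109). Atp5o, which joins the stator to the catalytic head, rose by 0.73 ± 0.09 (edgeR adjusted p = 9.29e-06) and 0.64 ± 0.09 (0.000141), and Atp5l, a membrane subunit, by 1.12 ± 0.17 (7.73e-05) and 1.01 ± 0.20 (0.00144). Of the 18 members of complex V, 6 were higher and 3 lower in CCR2+ve cells, where 21.9% of all genes were higher and 25.9% lower. In CCR1/2+ve cells 6 were higher and 9 lower, where 20.6% of all genes were higher and 25.4% lower. At a mean of at least 20 CPM, 42.2% of all genes were higher and 30.7% lower in CCR2+ve cells. In CCR1/2+ve cells these shares were 43.9% and 29.6%.

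In complex I, 18 of 37 nuclear members were higher and 10 lower in CCR2+ve cells and 17 and 11 in CCR1/2+ve cells. These shares are near those given above for all genes at 20 CPM or more. Ndufv1, the NADH-binding subunit (chr19:4007384-4012806), stood at 107, 113, 136 and 125 CPM in resting and 285, 266, 251 and 300.1 CPM in inflamed CCR2+ve cells, a log2 fold change of 1.12 ± 0.11 (edgeR adjusted p = 4.12e-07). In CCR1/2+ve cells it went from 109.8, 119, 136 and 139.5 CPM to 298, 258 and 270.4 CPM (1.00 ± 0.09, edgeR adjusted p = 3e-06). Ndufa10, an accessory subunit, fell by 1.45 ± 0.15 (edgeR adjusted p = 9.21e-07) and 1.42 ± 0.20 (0.000258), and the noncoding Ndufb1-ps fell by 1.59 ± 0.22 (4.18e-05) and 2.07 ± 0.14 (2.87e-07). Of 8 members of complex III, 2 were higher and 3 lower in CCR2+ve and 1 higher and 4 lower in CCR1/2+ve cells. Of 16 members of complex IV, 3 were higher and 6 lower, and 0 higher and 9 lower. Over all genes 21.9% were higher and 25.9% lower in CCR2+ve cells, and 20.6% and 25.4% in CCR1/2+ve cells. Over genes at 20 CPM or more the shares were 42.2% and 30.7%, and 43.9% and 29.6%.

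Complex II, which also works in the citrate cycle, was split between its 3 measured genes. Sdhd, a membrane anchor (chr9:50596357-50603812), went from 242, 247, 271 and 259.7 CPM to 157, 151, 122 and 99.9 CPM in CCR2+ve cells and from 263, 256, 292 and 297 CPM to 155, 127 and 128 CPM in CCR1/2+ve cells. Its log2 fold changes were -1.02 ± 0.12 (edgeR adjusted p = 6.77e-06) and -1.15 ± 0.09 (1.1e-06), without overlap. Sdhb, the iron-sulfur subunit (chr4:140961203-140979193), rose by 0.27 ± 0.10 (edgeR adjusted p = 0.0333, not called without inflamed CCR2+ve replicate 1 or 3 or with the offsets) and 0.43 ± 0.08 (0.00111), and Sdhc, the other anchor, by 0.51 ± 0.16 (0.0151, not called without inflamed CCR2+ve replicate 1) and 0.39 ± 0.11 (0.0114). Cycs was not called in CCR2+ve cells (0.20 ± 0.10, edgeR adjusted p = 0.109) and rose in CCR1/2+ve cells by 0.52 ± 0.10 (0.00128), to 279.6, 222 and 205 CPM.

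**Figure D4:**
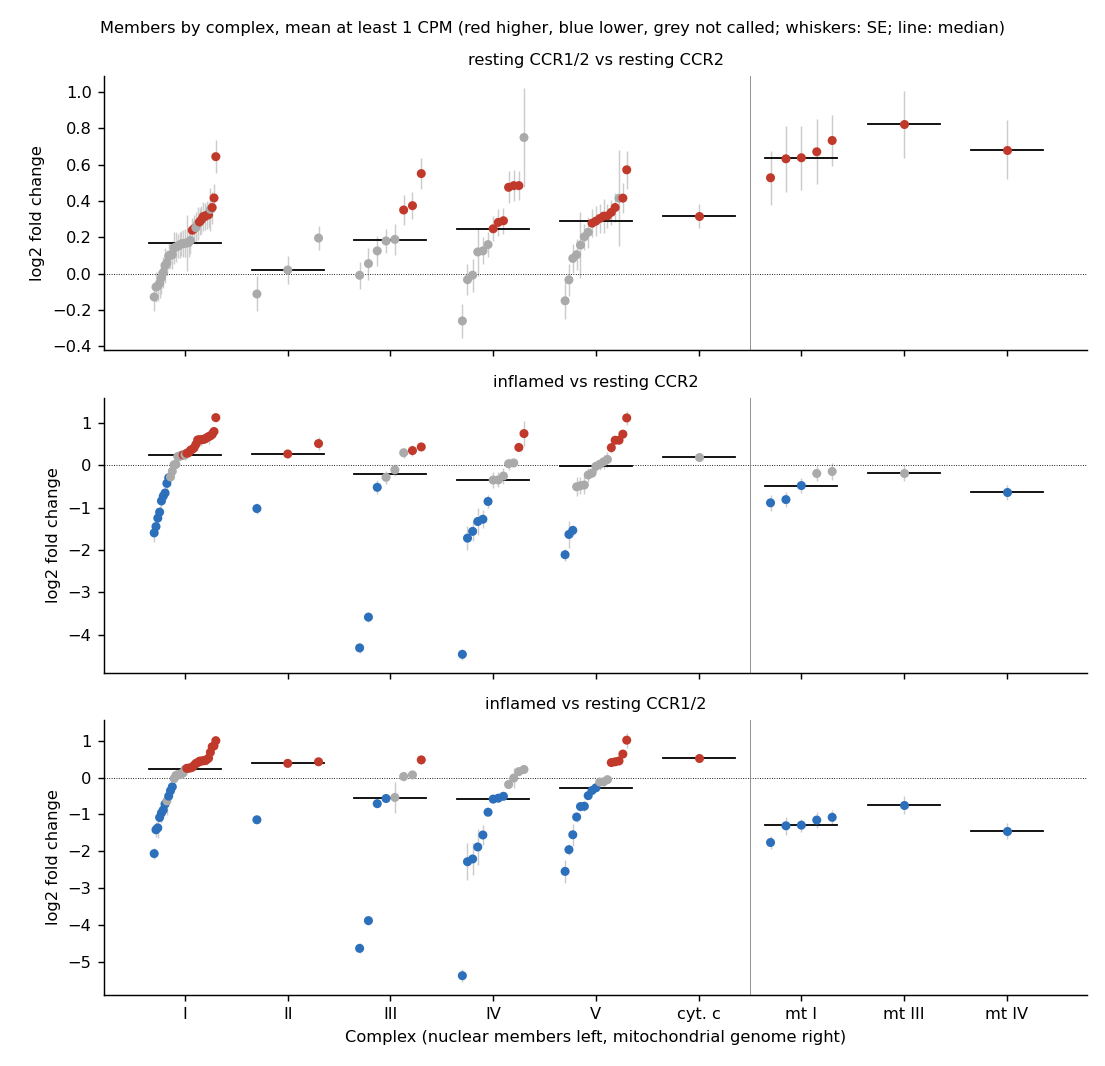
Log2 fold change of each member with a mean of at least 1 CPM, by complex, nuclear members to the left and mitochondrial to the right of the line, with SE whiskers and the median of each set, for resting CCR1/2+ve against CCR2+ve and for inflamed against resting cells of both populations. In the top panel called members are all higher, and in the lower panels complexes I, II, III and V hold both higher and lower members, down to -4.46 and -5.39 for Cox5a.

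Of the 11 mitochondrial members, 4 were called lower in inflamed CCR2+ve and 7 in inflamed CCR1/2+ve cells. mt-Nd1 stood at 304, 354, 187 and 205 CPM in inflamed CCR2+ve and 300.5, 195 and 206 CPM in inflamed CCR1/2+ve cells, below every resting library, with log2 fold changes of -0.89 ± 0.19 (edgeR adjusted p = 0.00124) and -1.77 ± 0.17 (9.41e-06). mt-Co1 fell by 0.63 ± 0.18 (edgeR adjusted p = 0.00887, not called without resting CCR2+ve replicate 1 or 2) and 1.46 ± 0.21 (0.000404). mt-Cytb was not called in CCR2+ve cells (-0.19 ± 0.19, edgeR adjusted p = 0.442) and fell by 0.75 ± 0.24 (0.0316) in CCR1/2+ve cells, a call lost without resting CCR1/2+ve replicate 1 or 2 or inflamed CCR1/2+ve replicate 3 or 4. With no filter on low counts that fall of mt-Cytb was not called (edgeR adjusted p = 0.125), and with offsets for GC content and length it was -0.21 (0.347). In CCR2+ve cells mitochondrial calls numbered 2 without resting CCR2+ve replicate 1 or replicate 2. With offsets for GC content and length, mt-Nd1 alone of the 4 stayed called lower (-0.36, edgeR adjusted p = 0.0346). mt-Nd6, not called without them (-0.19 ± 0.17, edgeR adjusted p = 0.378), was then called higher (0.45 ± 0.15, 0.0239). The offsets also turned mt-Nd4 from -0.48 to 0.10, mt-Nd5 from -0.15 to 0.38 (edgeR adjusted p = 0.0657) and mt-Cytb from -0.19 to 0.31 (0.103), so that 4 of the 7 members with more than a few reads changed sign. They moved mt-Nd2 from -0.81 to -0.21 (edgeR adjusted p = 0.169), mt-Co1 from -0.63 to -0.17 (0.390) and mt-Nd1 from -0.89 to -0.36 (0.0346). In CCR1/2+ve cells they moved mt-Nd1 from -1.77 to -1.16, mt-Nd2 from -1.30 to -0.60, mt-Nd4 from -1.16 to -0.49, mt-Nd5 from -1.08 to -0.51, mt-Nd6 from -1.31 to -0.50 and mt-Co1 from -1.46 to -0.98, each still called. mt-Rnr1, the small ribosomal RNA of the same genome, rose by 2.84 ± 0.22 (edgeR adjusted p = 8.59e-08) in CCR2+ve and 2.32 ± 0.22 (2.47e-05) in CCR1/2+ve cells, and mt-Rnr2 by 1.12 ± 0.17 (5.03e-05) in CCR2+ve cells and not in CCR1/2+ve cells (-0.03 ± 0.15, 0.889). The 2 rRNA genes together held 0.0861 ± 0.0211% of reads in resting and 0.209 ± 0.049% in inflamed CCR2+ve cells (SD, n = 4).

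The difference between the 2 responses to inflammation was itself tested, as an interaction in 1 fit of the 15 CCR2+ve and CCR1/2+ve libraries. Of 83 nuclear members 1 was called lower and 0 higher, and of 11 mitochondrial members 0, where 0.241% of all genes were higher and 0.155% lower. That member was Cox5a, whose fall was deeper in CCR1/2+ve cells by 0.97 ± 0.21 (edgeR adjusted p = 0.0473), a call lost when any 1 of 11 of the 15 libraries was left out (adjusted p up to 0.17). For mt-Nd1 the interaction was -0.92 ± 0.28 (edgeR adjusted p = 0.171, and 0.00645 with the replicate block). With the block 6 mitochondrial members were called lower in the interaction: mt-Nd1, mt-Nd4, mt-Nd5, mt-Nd6, mt-Cytb and mt-Co1. In that fit 0.836% of all genes were higher and 0.354% lower. The block there also joins resting with inflamed libraries of the same number, for which no pairing is known. Same-numbered resting and inflamed CCR2+ve libraries correlated at -0.271 to 0.242, so these calls are not taken over the fit without the block.

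Lists of related genes were counted in the same comparisons, where 21.9% and 20.6% of all genes were higher in CCR2+ve and CCR1/2+ve cells and 25.9% and 25.4% lower. Among genes at a mean of at least 20 CPM, 42.2% and 43.9% were higher and 30.7% and 29.6% lower. Of 17 glycolysis genes 13 were higher and 1 lower in CCR2+ve cells (median 1.13) and 13 higher and 2 lower in CCR1/2+ve cells (median 1.27). Of 12 citrate cycle genes 9 were higher and 0 lower (median 0.45) and 9 higher and 1 lower (median 0.48). Complex assembly factors had 16 of 45 higher and 20 lower in CCR2+ve and 13 and 19 in CCR1/2+ve cells, and mitochondrial ribosome genes 31 of 71 higher and 17 lower, and 26 and 20. Mitochondrial transcription and replication genes had 1 of 11 higher in each, and 5 and 6 lower. Cytosolic ribosome genes had 5 of 83 higher and 30 lower in CCR2+ve and 2 higher and 53 lower in CCR1/2+ve cells. Carriers had 3 of 6 higher and 1 lower, and 3 and 2, and the list of regulators 2 of 11 higher and 5 lower, and 3 and 5. Over all genes the median log2 fold change was -0.10 in CCR2+ve and -0.25 in CCR1/2+ve cells. Erythroid markers moved too, from summed levels of 52.7 to 269 CPM in resting to 1.20 to 3.72 CPM in inflamed CCR2+ve and CCR1/2+ve libraries, with 6 of 6 lower in each. Neutrophil markers summed to 586 to 881 CPM in resting and 1195 to 1517 CPM in inflamed CCR2+ve libraries, and to 2384 to 2990 CPM and 2354 to 2929 CPM in CCR1/2+ve ones. In these sums Mmp8 alone averaged 548 CPM in resting and 1044 CPM in inflamed CCR2+ve cells, and 451 and 1606 CPM in CCR1/2+ve cells. In the inflamed CCR1 libraries Mmp8 averaged 9.10 CPM. Of 9 neutrophil markers 5 were higher and 0 lower in CCR2+ve and 5 higher and 2 lower in CCR1/2+ve cells, where S100a8, a neutrophil and monocyte calprotectin subunit, fell by 2.23 (edgeR adjusted p = 7.84e-07). Monocyte markers had 4 of 10 higher and 2 lower, and 6 and 2. Proliferation markers had 4 of 6 higher and 0 lower, and 2 and 1. Macrophage markers had 3 of 6 higher and 0 lower, and 2 and 3. Dendritic cell markers had 1 of 7 higher and 4 lower in each population. B cell markers had 0 of 5 higher and 1 and 2 lower, and T and NK cell markers 0 of 4 higher and 2 and 1 lower. The part of these in the members' levels was not tested.

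Between the inflamed populations, CCR1/2+ve and CCR2+ve monocytes, no member passed the same test. Of 83 nuclear and 11 mitochondrial members 0 were called by edgeR, against 0.123% of all genes higher and 0.0643% lower, and 3 nuclear and 1 mitochondrial member had an unadjusted p below 0.05, as 8.98% of all genes did. The closest was Cycs, at 167, 165, 135 and 147 CPM in CCR2+ve and 279.6, 222 and 205 CPM in CCR1/2+ve cells, without overlap: its log2 fold change was 0.60 ± 0.13 (edgeR adjusted p = 0.104). It was called by DESeq2 (adjusted p = 0.00777), with no filter on low counts (edgeR, 0.0149) and with the replicate block (edgeR, 0.021), and these 3 settings called no other member. Cox5a differed by -0.84 ± 0.25 (edgeR adjusted p = 0.299), and mt-Cytb by 0.23 ± 0.26 (0.84).

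Wide spread within a group was counted for members and for all genes. Of 73 nuclear members at 10 CPM or more, 0 had a highest library at least 2 times its lowest in either resting group, where 2.47% of all genes at that level did in CCR1/2+ve and 2.65% in CCR2+ve monocytes. The count was 11 in inflamed CCR2+ve cells, against 7.2% of all genes, and 8 in the inflamed CCR1 libraries, against 6.15%. In inflamed CCR1/2+ve cells, where the ratio is over 3 libraries and not 4, it was 7, against 9.33% of all genes. The median ratio over members was 1.23 in resting CCR1/2+ve, 1.14 in resting CCR2+ve, 1.22 in inflamed CCR1/2+ve, 1.55 in inflamed CCR2+ve and 1.33 in the inflamed CCR1 libraries. In inflamed CCR1/2+ve cells the widest were Cox8a (5.96 times), Cox6a1 (5.83), Uqcrc1 (5.09) and Cox5b (4.49), with replicate 2 lowest and replicate 4 highest in each of the 4. Cox5b stood there at 15.6, 34.2 and 69.9 CPM. In inflamed CCR2+ve cells Cox6a1 was widest (3.88 times), with replicate 4 at 50.3 CPM and the others at 132 to 195 CPM.

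Against either inflamed monocyte group, the inflamed CCR1 libraries, with their neutrophil markers, had nuclear members called higher less often than all genes. Some mitochondrial members were higher. More nuclear members were lower than higher, as was so for all genes. Against inflamed CCR2+ve cells 9 nuclear members were higher and 24 lower, where 22.7% of all genes were higher and 25.4% lower, and 3 mitochondrial members were higher and 0 lower. Against inflamed CCR1/2+ve cells 4 nuclear members were higher and 35 lower, where 20.2% of all genes were higher and 23% lower, and 4 mitochondrial members were higher and 0 lower. At 20 CPM or more, 8.22% of 73 nuclear members were higher and 30.1% lower than in CCR2+ve cells, against 29.5% and 38.9% of all genes at that level, and 2.74% and 45.2% against 24.9% and 38.8% in the comparison with CCR1/2+ve cells. These comparisons share their CCR1 libraries. With 1 library left out, the mitochondrial members called ranged from 2 to 5 against CCR2+ve and from 2 to 7 against CCR1/2+ve cells. With offsets for GC content and length, mt-Nd4 was not called against CCR2+ve cells (0.22, edgeR adjusted p = 0.144). mt-Nd6 was then called lower (-0.61, edgeR adjusted p = 0.00507). The count of higher nuclear members was 4 without inflamed CCR1 replicate 1 and 5 without CCR1 replicate 2 or CCR2+ve replicate 4 in the first comparison, and 10 without inflamed CCR1/2+ve replicate 4 in the second.

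The measured genes of complex II were lower in these libraries than in the inflamed monocytes. The 3 genes together held 0.0375 ± 0.0015% of reads (SD, n = 4), against 0.0804 ± 0.0107% in inflamed CCR2+ve (n = 4), 0.0816 ± 0.0036% in inflamed CCR1/2+ve (n = 3), 0.0837 ± 0.0019% in resting CCR2+ve (n = 4) and 0.0909 ± 0.0012% in resting CCR1/2+ve cells (n = 4). Sdhb held 224, 208, 215 and 214 CPM in the inflamed CCR1 libraries, against 623, 554, 544 and 486 CPM in inflamed CCR2+ve and 609, 599.7 and 639 CPM in inflamed CCR1/2+ve cells, below every library of the other 4 groups. The log2 fold changes were -1.35 ± 0.10 (edgeR adjusted p = 5.15e-09) and -1.52 ± 0.09 (6.65e-09). Sdhc fell by 0.81 ± 0.16 (edgeR adjusted p = 0.00047) and 0.55 ± 0.09 (0.000296), and Sdhd by 0.54 ± 0.13 (0.00214) and 0.60 ± 0.10 (0.000343), so that 3 of 3 were lower in both comparisons. Sdhc lay nearer to its resting level: per kilobase it held 28.9 CPM in the inflamed CCR1 libraries, 29.8 CPM in resting CCR1/2+ve and 33.9 CPM in resting CCR2+ve cells.

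**Figure D5:**
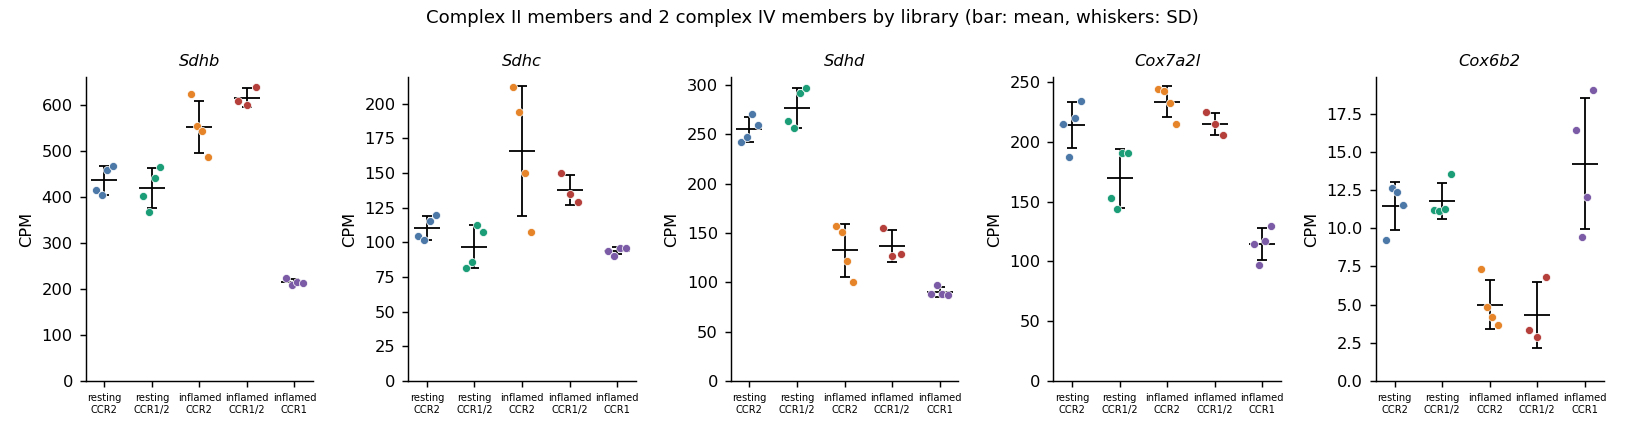
Level in CPM of the 3 complex II members and of Cox7a2l and Cox6b2 of complex IV, 1 point a library, with the mean and SD of each of the 5 groups. In the inflamed CCR1 libraries Sdhb (208 to 224 CPM) and Cox7a2l (97.3 to 129.7 CPM) lie below every other library, and Cox6b2 reaches 16.4 and 19.1 CPM in 2 of the 4.

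In complex IV the inflamed CCR1 libraries held less Cox4i1 and Cox7a2l. Cox4i1 stood at 354, 344, 352 and 355 CPM against 583 to 728 CPM in inflamed CCR2+ve and 565 to 659.7 CPM in inflamed CCR1/2+ve cells (-0.94 ± 0.10, edgeR adjusted p = 3.43e-07, and -0.82 ± 0.09, 3.1e-06). Cox7a2l, at 115, 97.3, 117 and 129.7 CPM, was lower by 1.02 ± 0.11 (edgeR adjusted p = 3.61e-07) and 0.91 ± 0.11 (8.5e-06). Cox6b2, known as the testis form of Cox6b, was higher by 1.52 ± 0.25 (edgeR adjusted p = 7.44e-05) and 1.71 ± 0.35 (0.00277), at 16.4, 9.45, 12.1 and 19.1 CPM against 3.66 to 7.31 and 2.85 to 6.81 CPM. It remained a minor form: per kilobase it made up 6.28 ± 1.61% of Cox6b1 and Cox6b2 together in the inflamed CCR1 libraries, 1.67 ± 0.32% in inflamed CCR2+ve and 3.05 ± 0.21% in resting CCR2+ve cells (SD, n = 4). Cox7a1, known as a heart and muscle form, stood at 0.235 to 0.323 CPM in the inflamed CCR1 libraries, below the 0.775 to 1.77 and 1.11 to 1.90 CPM of the inflamed monocytes (-2.08 ± 0.42, edgeR adjusted p = 0.000515, and -2.34 ± 0.41, 0.000353). Cox7a1 averaged only 20.5 reads over the 19 libraries, so the size of these folds is not firm. Cox4i2 lay near the limit of detection, at 0 to 0.0804 CPM in resting CCR2+ve, 0.258 to 1.20 CPM in inflamed CCR2+ve, 0.746 to 0.921 CPM in inflamed CCR1/2+ve and 0.0471 to 0.271 CPM in the inflamed CCR1 libraries. Those reads are too few for a fold to be given. edgeR called it higher in inflamed than in resting CCR2+ve cells (adjusted p = 0.000475) and lower in the inflamed CCR1 libraries than in inflamed CCR2+ve (0.00404) and CCR1/2+ve cells (0.00244). In 2 other families 1 form was dominant throughout: Cox4i1 made up 99.7 to 99.98% of Cox4i1 and Cox4i2 per kilobase in group means, and Cox6a1 99.9 to 99.99% of Cox6a1 and Cox6a2.

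The other complexes held members in both directions. Atp5a1 was lower in the inflamed CCR1 libraries by 0.87 ± 0.10 (edgeR adjusted p = 1.14e-06) and 0.64 ± 0.10 (9.02e-05), Atp5c1, the gamma subunit, by 0.55 ± 0.10 (0.000131) and 0.68 ± 0.09 (2.22e-05), and Ndufv1 by 0.63 ± 0.10 (3.8e-05) and 0.63 ± 0.09 (4.74e-05). Uqcrfs1 was lower still than in the inflamed monocytes, at 9.46, 6.92, 6.61 and 6.07 CPM (-1.0 ± 0.18, edgeR adjusted p = 0.000191, and -0.71 ± 0.20, 0.0108), while Cyc1 at 18.9, 18.2, 15.7 and 11.9 CPM was not called (0.18 ± 0.17, 0.406, and 0.33 ± 0.19, 0.198). Cox5a, at 9.78, 8.27, 7.49 and 4.29 CPM, was not called against CCR2+ve cells (0.43 ± 0.24, edgeR adjusted p = 0.165) and was higher than in CCR1/2+ve cells (1.24 ± 0.30, 0.00369). Uqcrh was lower by 0.52 ± 0.18 (edgeR adjusted p = 0.024, not called without inflamed CCR1 replicate 2, 3 or 4 or CCR2+ve replicate 1 or 2) and 0.50 ± 0.12 (0.00296). Against CCR2+ve cells Ndufb7 was higher by 0.40 ± 0.11 (edgeR adjusted p = 0.00718), Uqcrc1 by 0.61 ± 0.17 (0.00766), Ndufa10 by 0.51 ± 0.19 (0.0358) and Cycs by 0.39 ± 0.12 (0.0134). None of these 4 was called against CCR1/2+ve cells. The call on Ndufa10 was lost without inflamed CCR1 replicate 1, 2 or 3 or CCR2+ve replicate 2 or 4, and that on Cycs with the offsets and without inflamed CCR1 replicate 1 or 2. Atp5b was higher than in both, by 0.68 ± 0.22 (edgeR adjusted p = 0.0263) and 1.02 ± 0.29 (0.0264), calls that were both lost with no filter on low counts and without inflamed CCR1 replicate 1, 2 or 3. The first was also lost without inflamed CCR2+ve replicate 2 or 4, and the second with the replicate block and without inflamed CCR1/2+ve replicate 2 or 3. Atp5s, named Dmac2l in RefSeq, was higher by 2.51 ± 0.27 (edgeR adjusted p = 6.18e-07) and 2.02 ± 0.23 (6.55e-06). mt-Cytb was higher by 0.85 ± 0.15 (edgeR adjusted p = 0.000211) and 0.60 ± 0.17 (0.017, not called without inflamed CCR1 replicate 2 or CCR1/2+ve replicate 3), and mt-Co1 by 0.51 ± 0.14 (0.00734) and 0.67 ± 0.16 (0.00607). The ribosomal RNA mt-Rnr2 went the other way (-1.15 ± 0.15, edgeR adjusted p = 9.96e-06, and -0.45 ± 0.16, 0.0464). mt-Rnr1 was not called (-0.44 ± 0.24, edgeR adjusted p = 0.167, and -0.53 ± 0.23, 0.109). Marker lists moved too. Against CCR2+ve cells 0 of 10 monocyte markers were higher and 10 lower, and against CCR1/2+ve cells 0 and 9. Of 9 neutrophil markers 8 were higher and 1 lower, and of 6 proliferation markers 6 were higher, in both comparisons. Dendritic cell markers had 5 of 7 lower in both, macrophage markers 1 of 6 higher and 3 lower, and 1 and 2, and erythroid markers 3 of 6 lower, and 1. B cell markers had 1 of 5 higher and 0 lower, and 1 and 2, and T and NK cell markers 1 of 4 higher and 1 lower, and 1 and 0, with Nkg7, a granule gene of cytotoxic cells, higher by 9.30 and 8.16 (edgeR adjusted p = 1.86e-16 and 7.58e-13). Their part in the members' levels was not tested.

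Lists of related genes were counted against inflamed CCR2+ve and CCR1/2+ve cells as well. Of 12 citrate cycle genes 3 were higher and 5 lower (median log2 fold change -0.23), and 2 higher and 7 lower (median -0.40). Of 17 glycolysis genes 5 were higher and 7 lower (median -0.21), and 5 higher and 8 lower (median -0.28). Complex assembly factors had 8 of 45 higher and 10 lower, and 7 and 13. Mitochondrial transcription and replication genes had 4 of 11 higher and 2 lower, and 4 and 1. Carriers had 0 of 6 higher and 4 lower in each, and regulators 2 of 11 higher and 3 lower in each. Mitochondrial ribosome genes had 18 of 71 higher and 14 lower, and 15 and 16, and cytosolic ribosome genes 8 of 83 higher and 6 lower, and 6 and 13. Over all genes the median log2 fold change was -0.0093 and 0, with the shares called given above.

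Over all libraries, the 8 resting and 11 inflamed ones were separated by some members regardless of population. Of 83 nuclear members 18 had every inflamed library below every resting one, where 13.3% of all genes tested did. Every inflamed library was above for 9 members, where 8.54% of all genes were, and 56 overlapped. At a mean of 20 CPM or more, 17 of 73 nuclear members were below and 8 above, against 16.8% and 19.3% of all genes at that level. Of the 11 mitochondrial members, mt-Nd1 was below and the other 10 overlapped.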

How the data were processed

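Bulk RNA-seq of 19 libraries in 5 groups was analysed, with groups taken from the sample labels. Before deposit the authors checked the paired-end reads with fastp, mapped them with STAR 2.7.10a to GRCm38 (Ensembl 91), discarded reads with more than 1 place or under 35 matched bases, and summed reads per gene. The deposited values are raw counts for 50854 genes. Which strand was counted is not given in the sources used here, so antisense partners cannot be told apart. The table has 1 further column without a sample record, which was not used. Chromosome 14 was not analysed here, with 0 protein-coding genes listed.

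A gene was kept where reads averaged 1 or more per library (18652 genes). Fits used edgeR 4.0.16 (R 4.3.3) on the groups compared, with TMM factors and the robust two-sided quasi-likelihood F test, and p-values were adjusted by Benjamini-Hochberg over all kept genes. Calls are at an adjusted p below 0.05, and the study's log2 cutoff of 1 served as a second rule. The SE of each log2 fold change was derived from it and the square root of F. CPM use TMM factors over the 19 libraries. Depth was 22268658 to 30502009 counts, which carry no molecular identifiers. Positions, lengths and GC content are from GENCODE on GRCm38. The fits were tested on simulated data.

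The members and gene lists were chosen with earlier results of these data known. Named members are those of the mitochondrial genome, complex II and cytochrome c, the smallest p in each direction per other complex and comparison, the largest fold change among members averaging 100 reads or more, isoform families, and 3 stated exceptions. Apart from these, 1 item is not reported here. Replicate numbers were taken as pairing the resting samples on correlation alone: over 9158 genes, deviations from group means correlated at 0.302 to 0.517 within numbers and -0.369 to 0.177 between them. Alternatives were DESeq2 1.42.0, scaling by RLE, keeping all genes with a read, replicate number as a block, leaving out mitochondrial reads, offsets for GC content and length, and leaving out each library.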

Additional observations from a re-analysis of the deposited data

Results flagged for a closer look

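Among 197 groups of 4 libraries looked at for the members, 7 had 1 library far from the other 3, judged by its gap to the nearest library over the range of the group (Dixon's ratio). Chance alone gives such a library in about 5% of groups. In the inflamed CCR1 libraries replicate 4 was low for Atp5d (ratio 0.855, 35.7 CPM against 74.8 to 81.4 CPM) and for Uqcrc1 (ratio 0.885, 719 CPM against 922 to 949 CPM), and replicate 2 was high for Sdhd (ratio 0.884, 97.4 CPM against 87.2 to 88.4 CPM). In resting CCR1/2+ve monocytes replicate 4 was high for Cox6b2 (ratio 0.962, 13.6 CPM against 11.2 CPM in each of the others) and replicate 2 was low for Ndufb1-ps (ratio 0.986, 110.5 CPM against 128 to 129 CPM). In resting CCR2+ve monocytes replicate 2 was high for Uqcr10 (ratio 0.933, 142 CPM against 116 to 118 CPM), and in inflamed CCR2+ve cells replicate 2 was low for Uqcrfs1 (ratio 0.863, 12.6 CPM against 15.1 to 15.5 CPM).

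The response of Cox5a to inflammation differed between the populations by an interaction term, with a log2 difference of -0.97 between the fall in CCR1/2+ve and that in CCR2+ve cells (edgeR adjusted p = 0.0473). Each of the 7 inflamed libraries lay below each of the 8 resting ones, and the call was lost in 11 of 15 fits that left out a library.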

How the results depend on the processing

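With replicate number as a block, 40 nuclear members were higher, 1 was lower and 7 mitochondrial members were called between the resting groups. There the numbers were taken as pairing the samples on correlation alone, and no label states it. Elsewhere no pairing was assumed. The block called 31 nuclear members higher, 26 lower and 4 mitochondrial (inflamed against resting CCR2+ve), and 23, 28 and 7 (inflamed against resting CCR1/2+ve). It called 1, 0 and 0 (inflamed CCR1/2+ve against CCR2+ve), 11, 34 and 5 (inflamed CCR1 against CCR2+ve), and 3, 45 and 4 (inflamed CCR1 against CCR1/2+ve). In the interaction it called 1 nuclear and 6 mitochondrial. Correlations of same-numbered samples there were -0.271 to 0.242, 0.0712 to 0.191, -0.263 to 0.455, 0.0973 to 0.196 and -0.276 to 0.0844 in the same order, and each of 4 correlated best with its own number only for inflamed CCR1 against CCR2+ve, a hint from the data and not the design.

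Between resting groups 1 nuclear member, Cox7a2l, was lower with DESeq2 (adjusted p = 0.0262), the block and the offsets for GC content and length (edgeR adjusted p = 0.0154), and mitochondrial calls were 3 with no filter and 4 with the offsets. With the offsets mitochondrial calls were 2 for inflamed against resting CCR2+ve (mt-Nd1 lower, and mt-Nd6 higher, which was not called without them) and 2 in the interaction, where DESeq2 made 1. For inflamed CCR1 against CCR2+ve the offsets no longer called mt-Nd4 and called mt-Nd6 lower (-0.61, edgeR adjusted p = 0.00507). DESeq2, no filter and the block called 1 nuclear member higher between the inflamed populations, and DESeq2 called 7 higher for inflamed CCR1 against CCR1/2+ve. mt-Nd4 reversed in inflamed against resting CCR2+ve cells, to 0.10 with the offsets (edgeR adjusted p = 0.575). The offsets moved the median log2 fold change of all genes from -0.10 to 0 in CCR2+ve and from -0.25 to -0.11 in CCR1/2+ve cells. The cause of these changes was not tested.

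With each library left out in turn, counts of nuclear members higher, nuclear lower and mitochondrial called ranged from 18 to 33, 0 to 1 and 3 to 7 between resting groups, 22 to 35, 19 to 26 and 2 to 5 for inflamed against resting CCR2+ve, 22 to 26, 29 to 35 and 6 to 7 for inflamed against resting CCR1/2+ve, 4 to 11, 21 to 34 and 2 to 5 for inflamed CCR1 against CCR2+ve, and 3 to 10, 27 to 39 and 2 to 7 for inflamed CCR1 against CCR1/2+ve. Between the inflamed populations they were 0, and in the interaction 0 to 2 nuclear and 0 to 1 mitochondrial. Beside the libraries named with the results, the count moved to 1 nuclear lower without resting CCR2+ve replicate 2, to 5 mitochondrial without inflamed CCR2+ve replicate 2 (against CCR1), to 7 and 2 mitochondrial without inflamed CCR1/2+ve replicates 2 and 3 (against CCR1), and in the interaction to 2 nuclear without inflamed CCR2+ve replicate 4 and 1 mitochondrial without inflamed CCR1/2+ve replicate 2.

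Of calls on named members, DESeq2 kept 124 and lost 2, RLE factors 124 and 2, no filter 116 and 10, the block 123 and 3 and the offsets 109 and 16 beside the reversed one, and with mitochondrial reads left out 101 were kept and 0 lost. At this depth mt-Co2, mt-Co3, mt-Atp6 and mt-Atp8, at 2.21 to 16 reads on average, allow no firm comparison.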
